A study of Mus musculus with 19 samples.

Results

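The 36 genes described here are Trp53, which encodes the transcription factor p53, and 35 genes widely used as its targets or feedback partners in the mouse. They are a list of names drawn up with earlier results of these data known, and all 36 were found among the 22521 genes of both deposited RPKM tables. RPKM is a read count divided by transcript length and by library size, so it sets levels of genes of different length on 1 scale within a table. The study profiled mRNA of mouse embryos whose mothers had Eed deleted in the oocyte, an obligatory subunit of Polycomb repressive complex 2, the enzyme that places the repressive mark H3K27me3. The groups named matKO came from Eed fl/fl mothers that carried Gdf9-Cre, a recombinase driven by an oocyte promoter, and wild-type PWK fathers. The groups named CTR came from Eed fl/fl mothers without Cre and the same kind of father. All embryos were thus B6/129 x PWK hybrids with an intact paternal Eed allele, so the matKO design removes the maternal supply and the maternal allele but leaves the paternal one. There were 2 matKO and 2 CTR morula libraries, made from whole embryos. Of the extra-embryonic ectoderm (ExE) at embryonic day 6.5, the trophoblast tissue next to the epiblast, there were 9 matKO libraries (4 female, 5 male) and 4 CTR libraries (2 female, 2 male).

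The deleted gene was read allele by allele. In ExE the maternal allele gave 11.1% to 17.1% of allelic Eed RPKM in matKO libraries and 43.9% to 47.7% in CTR libraries, and the adjusted p of that shift was 1.1e-05 (limma). For morulae the share read from the maternal Eed allele lay at 15.3% and 19.9% in matKO libraries and at 37.0% and 44.3% in CTR libraries. Of the ExE libraries, matKO males 4 and 5 stood apart in trophoblast markers, with Esrrb at 0.310 and 3.77 RPKM against 26.0 RPKM or more in the other matKO libraries and 35.5 RPKM or more in CTR libraries, and ExE results are given with and without them where the call changes. Nothing in the labels states that libraries came from separate litters, so p-values here measure the spread between these libraries. In bulk tissue, fewer cells of a type and less RNA per cell cannot be told apart.

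p53 is held at a low level by MDM2, a ubiquitin ligase whose own gene p53 activates, and by the related inhibitor MDM4. When DNA damage or other stress frees it, p53 binds paired decamers in its target genes and raises brakes on the cell cycle, death factors, repair enzymes and metabolic regulators. In the early mouse embryo the pathway is best known for removing damaged or unfit cells around implantation, and Cdkn1a and Mdm2 are its most commonly read targets.

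The promoters of 3 targets that the results return to are shown with every match to the p53 half-site consensus in capitals. That consensus is the decamer of which a full p53 element holds 2, and it reads the same on both strands. The windows run from 250 bases before to 50 bases after a gene's start and come from RefSeq on GRCm38.p6, whereas the expression tables used mm9, so no coordinates were carried between them. Cdkn1a is shown at chr17:29090729-29091028 (plus strand), Mdm2 at chr10:117710709-117711008 (minus strand) and Ccng1 at chr11:40755237-40755536 (minus strand), each read 5′ to 3′ along the gene.
Cdkn1a: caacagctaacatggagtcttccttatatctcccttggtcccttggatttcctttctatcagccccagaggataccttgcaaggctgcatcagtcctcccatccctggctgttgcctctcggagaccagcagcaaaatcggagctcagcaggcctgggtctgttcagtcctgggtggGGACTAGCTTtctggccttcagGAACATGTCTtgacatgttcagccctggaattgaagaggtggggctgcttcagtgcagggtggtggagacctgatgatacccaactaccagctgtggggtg
Mdm2: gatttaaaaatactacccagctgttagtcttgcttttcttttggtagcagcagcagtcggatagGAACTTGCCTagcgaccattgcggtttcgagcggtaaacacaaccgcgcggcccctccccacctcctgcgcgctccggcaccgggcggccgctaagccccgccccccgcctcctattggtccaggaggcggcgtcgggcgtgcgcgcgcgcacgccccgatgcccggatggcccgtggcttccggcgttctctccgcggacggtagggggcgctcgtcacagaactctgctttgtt
Ccng1: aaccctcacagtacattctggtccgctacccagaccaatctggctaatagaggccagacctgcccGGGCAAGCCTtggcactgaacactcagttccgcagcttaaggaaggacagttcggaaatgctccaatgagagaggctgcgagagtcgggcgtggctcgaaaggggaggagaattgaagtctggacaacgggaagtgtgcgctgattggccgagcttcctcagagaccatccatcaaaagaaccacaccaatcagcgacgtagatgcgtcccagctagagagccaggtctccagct
The Cdkn1a window shown, 1 of 2 that RefSeq gives for the gene, held the half-sites GGACTAGCTT and GAACATGTCT, whose first bases lie at -73 and -51 from the gene's start. With a spacer within 13 bases, they match the pattern searched for as a full element, which was present in 0.0731% of all 32851 promoter windows. The 10 bases right after GAACATGTCT, tgacatgttc, miss the half-site consensus only at their first base and so were not marked. The match thus does not show which decamers make up an element that p53 binds. The other Cdkn1a window, at another start of the gene, held no half-site, so these positions hold only for the start of the window shown. The Mdm2 window held 1 half-site, GAACTTGCCT, at -186, and Ccng1 held GGGCAAGCCT at -185. Of the 36 genes, 28 had a RefSeq window (38 windows in all), and 13 of the 28 had at least 1 half-site. By window this was 36.8% for the p53 genes against 8.36% of all windows. The 15 genes with none included Sesn2, Phlda3, Eda2r, Slc19a2 and Plk2. A match is only a run of letters, and known p53 elements often lie outside such windows.

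No p53 gene passed an adjusted p under 0.05 at either stage, yet most differences pointed to higher levels in matKO. Differences are in log2(RPKM + 1), matKO minus CTR, from limma fits over every gene that averaged 1 RPKM or more, with Benjamini-Hochberg adjustment. In morulae 30 of the 36 genes had a positive difference and the median was 0.42, beside a median of 0.02 and 53.4% positive over all 10329 genes tested. In ExE 25 of the 33 genes tested had a positive difference and the median was 0.19, beside 0.01 and 53.5% over all 9915 genes. Fas, Gdf15 and Rrm2b stayed under the filter in ExE. Eda2r and Epha2 passed the ExE filter only through their matKO libraries (means of 0.553 and 0.872 RPKM in CTR), as Gdf15 did in morulae (0.724 RPKM in CTR), so the filter itself kept them for their higher matKO values.

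**Figure D1:**
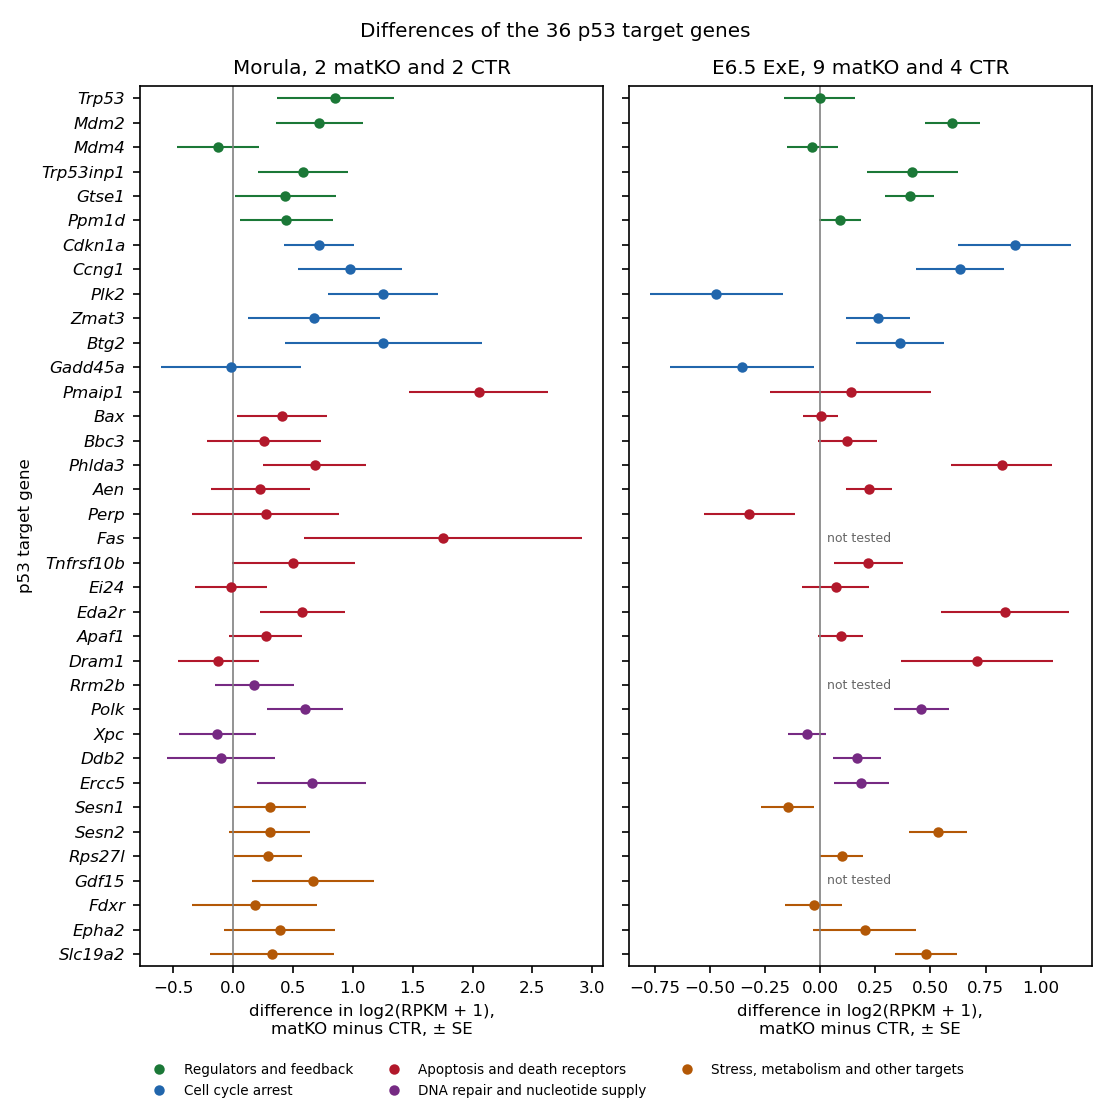
Difference in log2(RPKM + 1), matKO minus CTR, of each p53 target gene in morulae (left) and ExE (right, averaged over sexes), with bars of 1 standard error and colours by role. Differences above 0 are higher in matKO, 30 of 36 in morulae and 25 of 33 in ExE, and none passed an adjusted p under 0.05.

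In morulae the gene with the widest gap was Pmaip1, which encodes the BH3-only death factor NOXA. It had 33.8 and 52.3 RPKM in matKO morulae and 5.04 and 16.8 RPKM in CTR morulae. Both matKO libraries lay above both CTR libraries, at 3.94 times their mean, and the log2 difference was 2.05 ± 0.58 (SE; unadjusted p = 0.0137, adjusted p = 1, limma). Plk2, a Polo-like kinase induced by p53, had 58.3 and 73.9 RPKM in matKO morulae and 17.9 and 40.3 RPKM in CTR morulae. Its groups did not overlap either, with a log2 difference of 1.25 ± 0.46 (SE; unadjusted p = 0.0366, adjusted p = 1, limma). These were the 2 p53 genes of 36 with a higher level at an unadjusted p under 0.05, or 5.56%, where 0.436% of all genes were higher at that level. No p53 gene was lower at that level, where 0.455% of all genes were. After limma's adjustment 0 of 10329 genes (0%) passed, and 92 genes (0.891%) had an unadjusted p under 0.05. These counts rested on single libraries: without CTR replicate 2, Pmaip1 passed with a log2 difference of 2.83 (adjusted p = 0.0198, limma) and 13 of 36 p53 genes were higher at an unadjusted p under 0.05 (36.1%, against 4.71% of all genes in that fit). Without CTR replicate 1 it was 1 of 36 (2.78%, against 1.72%), and without matKO replicate 2 it was 1 of 35 (2.86%, against 0.194%).

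The arrest genes Cdkn1a and Ccng1 were the most abundant of the p53 genes that stood apart in morulae. Cdkn1a, the gene of the cyclin-dependent kinase inhibitor p21, had 284 and 314 RPKM in matKO morulae and 174 and 190 RPKM in CTR morulae (log2 difference 0.71 ± 0.29 SE). Its replicates lay close together in both groups. Ccng1, which encodes cyclin G1, a partner of a phosphatase that acts on MDM2, had 222 and 292 RPKM in matKO morulae and 90.0 and 184 RPKM in CTR morulae (log2 difference 0.98 ± 0.44 SE). Among the regulators, Mdm2 had 74.4 and 87.7 RPKM in matKO morulae and 38.5 and 61.5 RPKM in CTR morulae (log2 difference 0.72 ± 0.36 SE). Trp53 itself had 49.6 and 52.4 RPKM in matKO morulae and 17.4 and 44.1 RPKM in CTR morulae (log2 difference 0.85 ± 0.49 SE). The CTR morulae of Trp53 were thus farther from each other than the higher of them was from matKO. Polk, a translesion DNA polymerase, had 11.6 and 13.5 RPKM in matKO morulae and 6.70 and 9.30 RPKM in CTR morulae (log2 difference 0.60 ± 0.32 SE).

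**Figure D2:**
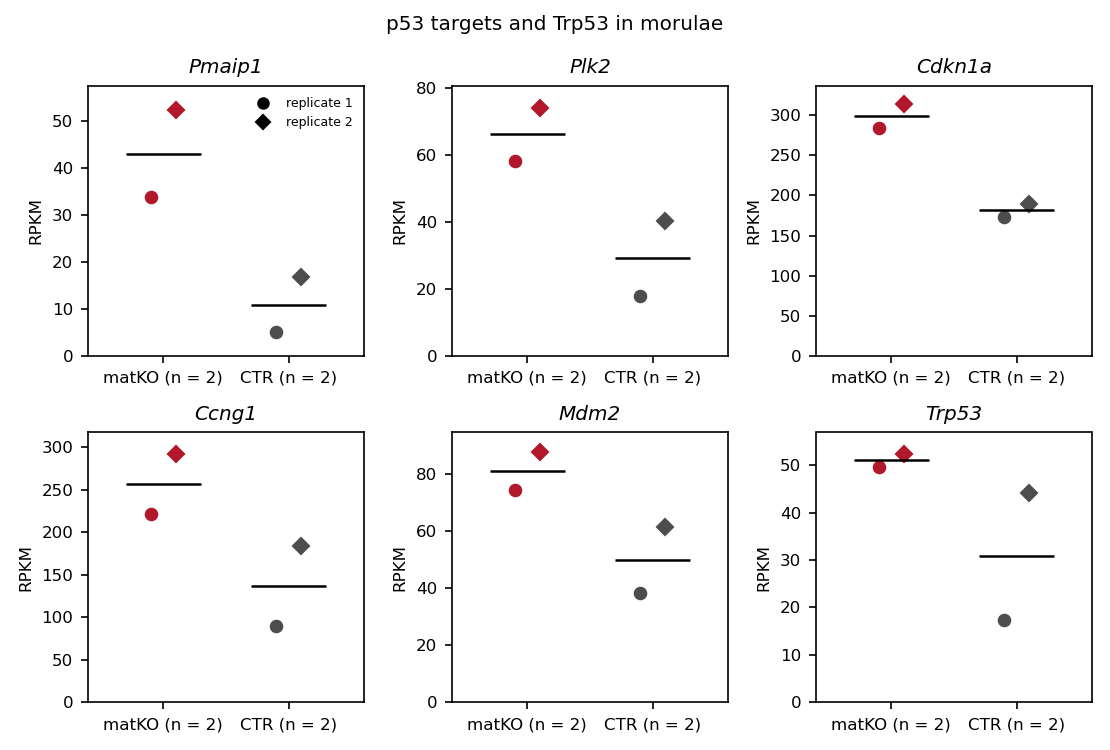
RPKM of 5 p53 targets and Trp53 in the 2 matKO and 2 CTR morula libraries, with a bar at each mean and replicate 1 and replicate 2 drawn as circles and diamonds. Both matKO libraries lie above both CTR libraries for each gene shown, and CTR replicate 1 is the lowest library of each.

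In all, 12 of the 36 genes (33.3%) were higher in both matKO morulae than in either CTR morula, where 10.3% of all genes were. They were Trp53, Mdm2 and Trp53inp1 among the regulators, Cdkn1a, Ccng1 and Plk2 among the arrest genes, Pmaip1, Phlda3, Eda2r and Apaf1 among the death genes, Polk, and Sesn1, which encodes a stress-induced inhibitor of mTORC1 signalling. None was lower in both matKO morulae, where 8.81% of all genes were. Leaving out a library makes separation easier for all genes: the count was 28 of 36 without CTR replicate 2 (77.8%, against 35% of all genes), 26 without matKO replicate 1 (72.2%, against 27.3%), 17 without CTR replicate 1 (47.2%, against 37.9%) and 16 without matKO replicate 2 (44.4%, against 26.1%). By role, the median log2 difference was 0.85 over the 6 arrest genes and 0.51 over the 6 regulators. It was 0.34 over the 12 apoptosis and death receptor genes, 0.31 over the 7 stress and metabolic genes, and 0.18 over the 5 repair and nucleotide genes. All 7 stress and metabolic genes had a positive difference, where 53.4% of all genes did. Gdf15 is 1 of the 7 and passed the filter only through matKO. Leaving it aside, 29 of the other 35 p53 genes had a positive difference and their median was 0.41. The abundant pro-apoptotic Bax had 229 and 312 RPKM in matKO morulae and 158 and 256 RPKM in CTR morulae, so its groups overlapped. Mdm4 overlapped too, with 26.0 and 23.9 RPKM in matKO morulae and 33.6 and 22.2 RPKM in CTR morulae. The p53 genes varied between replicates as well: replicate 2 was above replicate 1 for 29 of 36 in matKO and 26 of 36 in CTR, against 48.1% and 47.1% of all genes. Each genotype held 1 library of each number, so a term for the number leaves the median difference at 0.42 by construction.

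In ExE the gene with the smallest p-value was Mdm2. It ranged from 38.7 to 56.2 RPKM in matKO libraries, with a median of 43.7, and had 28.2, 31.9, 24.3 and 35.8 RPKM in CTR libraries. Every matKO library was above every CTR library, which was so for 1 of 33 p53 genes and 1.55% of all genes. Mdm2 averaged 46.0 ± 6.4 RPKM in matKO and 30.0 ± 4.9 RPKM in CTR (SD, n = 9 and 4), and its log2 difference was 0.60 ± 0.12 (SE; adjusted p = 0.102, limma). With it, 9 of the 33 p53 genes were higher at an unadjusted p under 0.05 (27.3%), where 9.24% of all genes were. None was lower at that level, where 6.82% of all genes were. The other 8 were Sesn2, Gtse1, Polk, Phlda3, Cdkn1a, Slc19a2, Ccng1 and Eda2r, with adjusted p-values from 0.123 to 0.201 (limma). Leaving aside Eda2r and Epha2, which passed the filter through matKO, 8 of 31 were higher at that level (25.8%) and the median difference was 0.17. Over all genes 5 of 9915 (0.0504%) passed the adjusted threshold in this comparison.

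Cdkn1a had 6.12, 6.96, 4.60 and 5.23 RPKM in matKO females and 8.03, 5.51, 4.47, 7.73 and 1.82 RPKM in matKO males. It had 3.91 and 3.32 RPKM in CTR females and 1.83 and 1.32 RPKM in CTR males. Only matKO male 5 fell within the CTR range and the ratio of means, matKO over CTR, was 2.16. The log2 difference was 0.88 ± 0.25 (SE; adjusted p = 0.147, limma). Without matKO male 5 it passed at 1.02 (adjusted p = 0.0418, limma), and without matKO males 4 and 5 at 0.98 (adjusted p = 0.0187, limma), where 69 of all genes passed (0.697%) instead of 5.

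Ccng1 ranged from 33.4 to 63.8 RPKM in matKO libraries, with a median of 42.8, and had 19.996, 33.3, 25.6 and 40.8 RPKM in CTR libraries. The groups overlapped through CTR male 2 (log2 difference 0.63 ± 0.20 SE). Phlda3, which encodes a pleckstrin-domain inhibitor of AKT signalling, ranged from 14.6 to 46.9 RPKM in matKO libraries, with a median of 28.0, and had 15.7, 17.5, 12.5 and 17.01 RPKM in CTR libraries. All matKO libraries but male 2 were above the CTR range (log2 difference 0.82 ± 0.23 SE), and without that library the difference was 0.94 with an adjusted p of 0.0443 (limma). Sesn2, a leucine sensor of the sestrin family that also answers the integrated stress response, ranged from 3.20 to 7.20 RPKM in matKO libraries, with a median of 4.26. It had 3.45, 2.87, 2.16 and 2.58 RPKM in CTR libraries, so that 1 matKO library, female 1, fell within the CTR range (log2 difference 0.53 ± 0.13 SE). Gtse1, which restrains p53 in human cells, ranged from 18.7 to 27.5 RPKM in matKO libraries, with a median of 23.2, and had 19.9, 15.1, 14.3 and 18.6 RPKM in CTR libraries (log2 difference 0.41 ± 0.11 SE). Polk ranged from 3.78 to 6.54 RPKM in matKO libraries, with a median of 4.97, and had 2.82, 4.02, 3.67 and 2.86 RPKM in CTR libraries (log2 difference 0.46 ± 0.13 SE). In both genes a single matKO library lay under the highest CTR library.

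**Figure D3:**
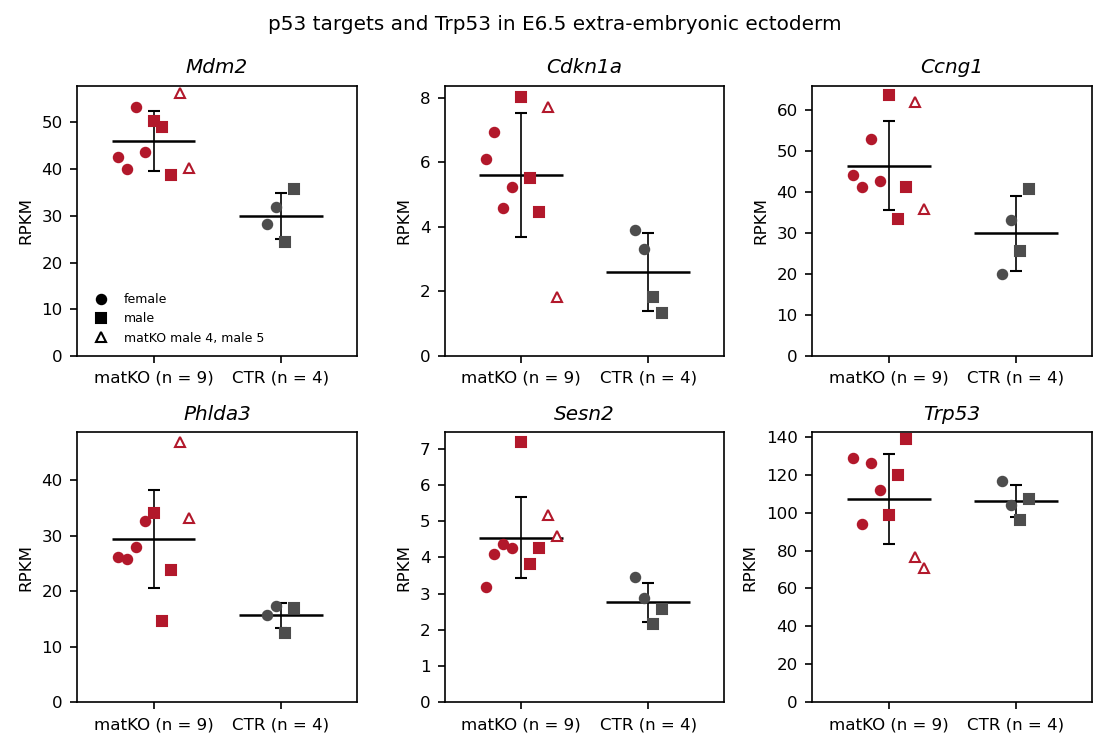
RPKM of 5 p53 targets and Trp53 in the 9 matKO and 4 CTR ExE libraries, with mean and SD; circles are females, squares males, and open triangles matKO males 4 and 5. Mdm2 separates the groups, Cdkn1a, Phlda3 and Sesn2 do so but for 1 matKO library each, and Trp53 overlaps.

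Trp53 had no such gap in ExE. It ranged from 70.6 to 139 RPKM in matKO libraries, with a median of 112, and had 116, 104, 96.3 and 107 RPKM in CTR libraries. The log2 difference was -0.0024 ± 0.16 (SE; adjusted p = 0.995, limma), and its sign turned when single libraries were left out. Transcript levels say nothing of p53 protein, which is mainly regulated by its stability. Other members also lay level: the highly expressed Bax ranged from 333 to 429 RPKM in matKO libraries, with a median of 384, and from 354 to 402 RPKM in CTR libraries, with a median of 388. Rps27l, a ribosomal protein gene that p53 activates in human cells, ranged from 3955 to 5224 RPKM in matKO libraries and from 3487 to 4944 RPKM in CTR libraries. By role, the median log2 difference in ExE was 0.31 over the 6 arrest genes, 0.25 over the 6 regulators, 0.18 over 4 repair genes, 0.15 over 6 stress and metabolic genes and 0.14 over 11 death genes. Fas, the death receptor that was at 8.24 and 42.4 RPKM in matKO morulae and 1.06 and 16.1 RPKM in CTR morulae, stayed at or under 0.125 RPKM in every ExE library of both groups.

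The p53 genes did not move as 1 block. Plk2, higher in both matKO morulae, had 0.899, 1.10, 1.51 and 0.354 RPKM in matKO females and 5.53, 2.58, 1.69, 1.74 and 0.484 RPKM in matKO males of the ExE. It had 2.55 and 1.58 RPKM in CTR females and 2.78 and 2.60 RPKM in CTR males. All matKO females were under both CTR females, while male 1 was the highest of all, and the averaged log2 difference was -0.47 ± 0.30 (SE; adjusted p = 0.464, limma). Perp, a p63 and p53 target that builds desmosomes, was at 81.8 and 79.9 RPKM in matKO males 4 and 5, at 142 to 205 RPKM in the other 7 matKO libraries and at 169 to 196 RPKM in CTR libraries. Gadd45a, a stress sensor, had 2.21 and 3.44 RPKM in matKO males 4 and 5, 7.66 to 16.05 RPKM in the other matKO libraries and 8.55 to 12.6 RPKM in CTR libraries. Dram1, a lysosomal autophagy factor, ran the other way, at 6.47 and 9.46 RPKM in those matKO males, 1.04 to 3.77 RPKM in the other matKO libraries and 1.25 to 1.80 RPKM in CTR libraries.

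Those 2 libraries stood apart in markers of the tissue as well. Esrrb, a trophoblast stem cell factor, had 0.310 and 3.77 RPKM in matKO males 4 and 5, 26.0 to 55.8 RPKM in the other matKO libraries and 35.5 to 40.9 RPKM in CTR libraries. Of the same list, Cdx2, Eomes, Bmp4 and Sox2 were also lowest in these 2 libraries, but not all markers were. Elf5, at 185 and 204 RPKM, lay within the 178 to 262 RPKM of the other matKO libraries. Tfap2c was highest in these 2 libraries, at 198 and 129 RPKM against 38.9 to 109 RPKM in the other matKO libraries. Hand1, which marks differentiating trophoblast, had 312 and 295 RPKM in matKO males 4 and 5, 34.2 to 103 RPKM in the other matKO libraries and 27.9 to 55.3 RPKM in CTR libraries. The summed level of the 7 stem cell and ExE markers was 407 to 702 RPKM in matKO and 480 to 604 RPKM in CTR, and that of the 8 ectoplacental cone and giant cell markers 360 to 1991 RPKM in matKO and 765 to 1104 RPKM in CTR. The epiblast list summed to 386 to 896 RPKM in matKO and 567 to 712 RPKM in CTR. That sum was mostly Utf1, with a median of 574 RPKM in matKO and 492 RPKM in CTR. Dnmt3b followed, with medians of 107 RPKM in matKO and 122 RPKM in CTR. Nanog had medians of 1.72 RPKM in matKO and 0.504 RPKM in CTR, and Pou5f1 of 2.1 and 2.97 RPKM. Fgf5 and Otx2 reached at most 1.34 and 2.32 RPKM in any ExE library, so the sum says little about these low genes. The giant cell and spongiotrophoblast markers Prl3d1, Prl2c2, Tpbpa and Flt1 stayed under 1 RPKM in every ExE library. The 6 visceral endoderm markers found summed to 0.483 to 41.6 RPKM in matKO and 3.33 to 4.56 RPKM in CTR, and the highest sum was in matKO male 5, with 15.3 RPKM of Apoa1 and 14.1 RPKM of Ttr. The decidua and blood list stayed at 0.504 to 1.38 RPKM in matKO and 0.50005 to 1.26 RPKM in CTR, and the oocyte list at 0.0672 to 2.27 RPKM in matKO and 0.423 to 0.508 RPKM in CTR. Their part in the p53 results was not tested beyond leaving males 4 and 5 out. Without these 2 libraries 15 p53 genes were higher at an unadjusted p under 0.05 (45.5%, where 10.5% of all genes were) and 1 was lower, Sesn1 (3.03%, where 8.33% were). Leaving aside Eda2r and Epha2, 13 of 31 were higher (41.9%). The median over the 33 genes was then 0.18. Cdkn1a then joined Mdm2 in having no overlap between groups with higher matKO values (2 of 33, where 2.54% of all genes did so). None was lower without overlap, where 1.88% of all genes were.

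Library by library, the count of p53 genes above every CTR library was highest in matKO male 1, at 24 of 33 (72.7%), where 30.1% of all genes of that library were. It was 20 of 33 (60.6%) in matKO female 3, against 29.7% of all genes, and in matKO male 4, against 37.1%. In matKO male 2 it was 14 of 33 (42.4%, against 25.7% of all genes). The lowest was matKO male 5, with 11 of 33 above every CTR library (33.3%, against 37.2% of all genes) and 12 of 33 below every CTR library (36.4%, against 31.2%). Male 4 held the highest matKO value for 13 p53 genes and male 1 for 9, and the same count over all genes was not made. In morulae matKO replicate 2 had 26 of 36 genes above both CTR libraries (72.2%) and replicate 1 had 16 of 36 (44.4%), against 27.3% and 26.1% of all genes. The 33 genes of ExE include Eda2r and Epha2, and the 36 of morulae include Gdf15, which passed the filter only through matKO. Counts per library without these genes were not made.

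**Figure D4:**
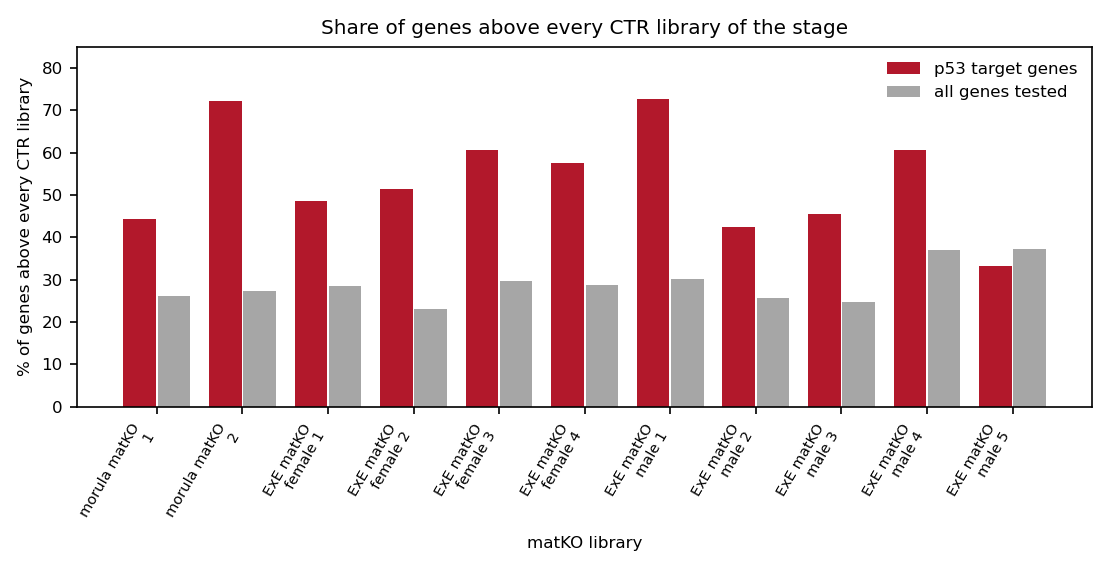
Percent of genes above every CTR library of the same stage, in each matKO library, for the p53 target genes (red, 36 in morulae and 33 in ExE) and all genes tested (grey). The p53 share exceeds the share of all genes in 10 of the 11 matKO libraries, ExE male 5 being the exception. The p53 genes include Eda2r and Epha2 in ExE and Gdf15 in morulae, which passed the filter only through matKO.

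For the difference between female and male matKO effects, 0 of 33 p53 genes passed after limma's adjustment and 0 of 33 at an unadjusted p under 0.05, where 1.71% of all genes did, 0.857% with the larger effect in females and 0.857% in males. Without matKO males 4 and 5, Cdkn1a had a larger effect in males at an unadjusted p under 0.05 (1 of 33, 3.03%, where 0.878% of all genes did), and 0 of 33 passed adjustment. In females alone Mdm2, Ccng1, Slc19a2 and Phlda3 were higher at an unadjusted p under 0.05 (4 of 33, 12.1%, where 2.49% of all genes were) and none was lower, where 2.07% were. After adjustment 2 of all genes (0.0202%) passed in females. Since both sexes share 1 estimate of the spread, leaving out matKO males 4 and 5 changed the female count to 10 of 33 (30.3%, where 4.85% of all genes were higher). In males alone 8 of 33 were higher at that level (24.2%, where 8.3% of all genes were), namely Sesn2, Mdm2, Cdkn1a, Eda2r, Gtse1, Polk, Phlda3 and Slc19a2, or 7 of 31 (22.6%) leaving aside Eda2r and Epha2. None was lower, where 6.38% of all genes were, and 4 of all genes (0.0403%) passed adjustment in males. In females alone 9 of 33 genes were higher in all 4 matKO libraries than in both CTR libraries (27.3%, where 9.48% of all genes were), and in males alone 5 of 33 were higher in all 5 (15.2%, where 10.8% were). Mdm2 was the gene in both lists. The female list added Cdkn1a, Ccng1, Pmaip1, Bbc3, Phlda3, Btg2, Dram1 and Slc19a2, and the male list Sesn2, Polk, Gtse1 and Eda2r, the last of which passed the filter only through matKO. In females only Plk2 was lower without overlap, where 8.1% of all genes were, and in males Gadd45a, Perp and Xpc were, where 8.08% were. Cdkn1a had a log2 difference of 0.53 ± 0.37 (SE) in females and 1.23 ± 0.35 (SE) in males, and its sex difference was -0.70 ± 0.51 (SE; adjusted p = 0.990, limma). Within males it passed without matKO male 5 (1.504, adjusted p = 0.0491, limma) and without matKO males 4 and 5 (1.42, adjusted p = 0.0495, limma).

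Sequence variants between the parental strains let the alleles be read apart, which addresses whether both parental copies of a target were higher. In ExE 27 of the p53 genes had enough allelic reads to be tested. On both alleles 15 of 27 (55.6%) had a positive difference, beside 34.0% of 8453 genes. The median difference was 0.30 on the maternal allele and 0.12 on the paternal allele, beside -0.0062 and 0.0041 over all genes. None passed adjustment (all genes: 13 maternal, 0.154%; 106 paternal, 1.25%). On each allele 5 of 27 were higher at an unadjusted p under 0.05 (18.5%), where 5.83% of all genes were on the maternal and 8.68% on the paternal allele, and none was lower, where 5.96% and 5.26% were. The maternal count was 3 of 27 without CTR female 1 (11.1%, against 4.93% of all genes in that fit). It was 8 of 27 (29.6%) without matKO female 2, without matKO male 5 and without matKO males 4 and 5, against 5.89%, 5.61% and 6.18% of all genes. The paternal count was 3 of 27 without CTR male 1 (11.1%, against 5.93%).

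Mdm2 stood apart on each allele by itself. Its maternal allele ranged from 32.2 to 49.6 allelic RPKM in matKO, with a median of 38.1, and from 25.7 to 30.0 in CTR, with a median of 26.6. Its paternal allele ranged from 25.7 to 43.6 in matKO, with a median of 30.0, and from 16.5 to 22.6 in CTR, with a median of 19.9. Neither pair of ranges overlapped, which was so for 0.864% of all genes on the maternal and 0.568% on the paternal allele. The log2 difference was 0.49 ± 0.10 on the maternal allele (SE; adjusted p = 0.126, limma) and 0.62 ± 0.14 on the paternal allele (SE; adjusted p = 0.0619, limma). Without matKO males 4 and 5 the maternal allele passed, with 0.48 (adjusted p = 0.0449, limma). Ccng1 was higher on both as well, by 0.64 ± 0.22 on the maternal and 0.74 ± 0.24 on the paternal allele (SE), at unadjusted p-values of 0.0135 and 0.0108 (limma, across all genes).

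Cdkn1a differed more on the paternal allele. That allele ranged from 2.19 to 15.5 allelic RPKM in matKO, with a median of 8.58, and from 0.623 to 5.37 in CTR, with a median of 3.21 (log2 difference 1.33 ± 0.38 SE; adjusted p = 0.129, limma). The maternal allele ranged from 1.30 to 7.08 in matKO, with a median of 4.70, and from 1.48 to 3.60 in CTR, with a median of 2.72 (log2 difference 0.64 ± 0.31 SE). The maternal share averaged 35.5% ± 7.6 in matKO and 50.6% ± 13.5 in CTR (SD, n = 9 and 4), and the shift of the log2 ratio was -0.70 ± 0.25 (SE; unadjusted p = 0.0172, adjusted p = 0.351, limma). The paternal allele passed without matKO male 5 (1.52, adjusted p = 0.0307, limma) and without matKO males 4 and 5 (1.43, adjusted p = 0.0456, limma). Pmaip1 leaned to the other side. Its maternal share averaged 63.4% ± 13.8 in matKO and 41.1% ± 10.5 in CTR (SD, n = 9 and 4), a log2 ratio shift of 1.15 ± 0.33 (SE; adjusted p = 0.224, limma). Among the other tested genes Zmat3, an RNA-binding p53 target, was higher on the paternal allele by 0.53 ± 0.15 (SE), and Polk on the maternal allele by 0.62 ± 0.23 (SE), neither passing adjustment (adjusted p = 0.141 and 0.329, limma). Eda2r, a receptor of the TNF family, lies on the X chromosome, of which males carry the maternal copy alone. Its paternal difference and ratio shift, averaged over both sexes in these fits, thus have little meaning. It is still counted among the 27 genes. The ratio shift had an unadjusted p under 0.05 in 6 of 27 genes (22.2%, where 9.74% of all genes had one), 5 toward the maternal allele (18.5%, where 3.61% of all genes were) and 1 toward the paternal allele (3.70%, where 6.13% were). After adjustment 17 of all genes (0.201%) passed, and no p53 gene.

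**Figure D5:**
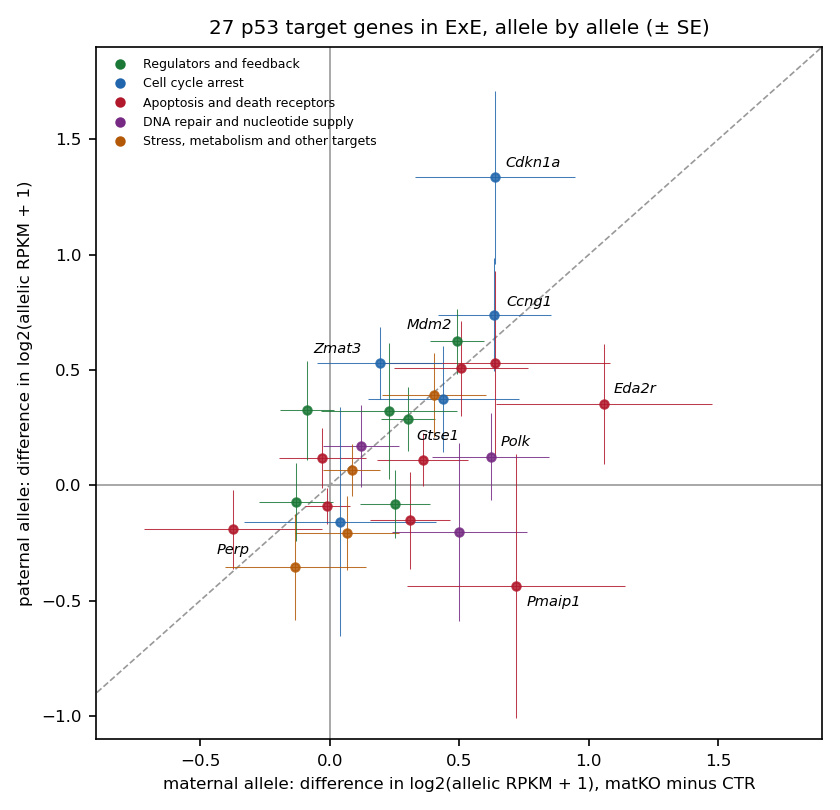
Difference in log2(allelic RPKM + 1), matKO minus CTR, on the maternal allele (x axis) and paternal allele (y axis) of 27 p53 target genes in ExE, with bars of 1 standard error. Of the 27, 15 lie in the upper right, Mdm2 and Ccng1 near the dashed line of equal differences, Cdkn1a above it and Pmaip1 below it.

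Some p53 genes had unequal alleles in both genotypes. The cross ran in the same direction throughout, with PWK always the father, so parent and strain of an allele cannot be told apart. The maternal share of Bax averaged 68.3% ± 2.8 in matKO and 67.1% ± 0.9 in CTR, and that of Aen, an apoptosis-enhancing nuclease, 19.0% ± 1.9 in matKO and 16.4% ± 3.4 in CTR (SD, n = 9 and 4). The maternal share of Perp was 41.4% and 55.8% in matKO males 4 and 5, 67.0% to 85.9% in the other matKO libraries and 74.6% to 76.3% in CTR libraries. In those 2 libraries its maternal allele gave 111 and 125 allelic RPKM, against 318 to 460 in the other matKO libraries and 379 to 413 in CTR libraries. Their paternal alleles gave 157 and 99.2 allelic RPKM, within the range of 75.4 to 158 of the other matKO libraries.

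In morulae the maternal shares come from read counts, with 29 p53 genes tested by edgeR. They include X-linked Eda2r, whose maternal share also turns on how many embryos were male, which the labels do not give. No p53 gene passed adjustment, 3 had an unadjusted p under 0.05 (10.3%, where 3.99% of all genes had one), and 2 of 7872 genes (0.0254%) passed. Of the 3, Fas and Pmaip1 went toward the maternal allele, where 1.93% of all genes did, and Mdm4 toward the paternal one, where 2.06% did. Intervals below are 95% Wilson intervals, which cover counting error only. Pmaip1 gave 604 of 686 reads (88.0%, 85.4 to 90.3) and 1497 of 1815 reads (82.5%, 80.7 to 84.2) from the maternal allele in matKO morulae. In CTR morulae it gave 32 of 122 (26.2%, 19.2 to 34.7) and 430 of 585 (73.5%, 69.8 to 76.9). Both matKO shares exceeded both CTR shares, but the CTR libraries differed from each other far beyond counting error (log2 shift 2.22, unadjusted p = 0.0216, adjusted p = 1, edgeR). Without CTR replicate 2 the shift was 4.00 and passed (adjusted p = 5.7e-08, edgeR). Fas gave 42 of 115 (36.5%, 28.3 to 45.6) and 196 of 1000 (19.6%, 17.3 to 22.2) maternal reads in matKO morulae, and 0 of 19 (0% to 16.8%) and 17 of 350 (4.86%, 3.05 to 7.64) in CTR morulae (log2 shift 2.86, adjusted p = 0.642, edgeR). Without CTR replicate 1, the library with 0 of 19, the shift was 2.69 and passed (adjusted p = 0.0010, edgeR). Mdm4 had 25 of 36 (69.4%, 53.1 to 82.0) and 39 of 79 (49.4%, 38.6 to 60.2) maternal reads in matKO morulae and 55 of 65 (84.6%, 73.9 to 91.4) and 75 of 89 (84.3%, 75.3 to 90.4) in CTR morulae (log2 shift -1.95, adjusted p = 1, edgeR). Cdkn1a stayed close to equal, with 44.4% and 48.5% maternal reads in matKO morulae and 47.7% and 50.7% in CTR morulae, and Ccng1 closer still, with 48.9% and 47.3% in matKO morulae and 48.7% and 48.7% in CTR morulae.

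The rest of the pathway was read from 4 lists of genes outside the 36. None of their genes passed adjustment at either stage. In morulae none of the 19 upstream kinases, cofactors and p53 relatives tested, 12 mitochondrial apoptosis genes, 22 cell cycle genes that p21 and the DREAM complex lower, or 8 integrated stress response genes had an unadjusted p under 0.05. Over all genes 0.891% had one, so finding none in lists of this size says little about the pathway. In ExE 1 of 18 upstream genes and 3 of 13 mitochondrial apoptosis genes were lower at that level, where 6.82% of all genes were. In the cell cycle list 6 of 22 genes were higher, where 9.24% of all genes were, and 0 lower. Its median log2 difference was 0.09, with 17 of 22 above 0. Among the p53 genes a like share, 9 of 33 (27.3%), was higher at that level, and 25 of 33 were above 0. In the integrated stress response list 2 of 10 were higher, against the same 9.24%. The median over the upstream list was -0.0084 and over the mitochondrial list 0.05.

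The authors' deposited tables of selected genes list some of these members, each with a log2 ratio, matKO over CTR. That ratio differs somewhat from the plain ratio of mean RPKM. The authors' deposited table for morulae has Pmaip1 at 1.97, Fas at 1.55, Plk2 at 1.18 and Gdf15, a stress cytokine, at 1.07 among 178 higher genes, and no p53 gene among 270 lower ones. The authors' deposited table for females has Plk2 at -1.02 among 154 genes. The authors' deposited table for males has Eda2r at 2.67, Cdkn1a at 1.74, Dram1 at 1.65, Sesn2 at 1.051 and Phlda3 at 1.04 among 400 genes. Those tables came from the same libraries, so they are not a second measurement.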

How the data were processed

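The deposited tables hold RPKM values per gene and library for all genes, allelic RPKM, allelic read counts over strain variants, and lists of selected genes with a log2 ratio; the authors made all of them. Per the submitters' processing notes, HISAT2 2.1.0, Cufflinks 2.2.1 and mm9 were used, with no role given. Allelic counts summed to 3327373 to 5109159 reads per morula library and 4696355 to 9828943 per ExE library, so low members carry wide counting error. Per the labels, libraries were made by SMARTer and Nextera XT from lysates of whole morulae or ExE.

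Deposited RPKM and allelic RPKM values were turned into log2(value + 1) and fitted with limma 3.58.1 (trend, sex in ExE), adjusting p-values over all genes tested (an average of 1 RPKM or more, or of 20 allelic reads per library). Deposited morula allelic counts were fitted with edgeR 4.0.16 (quasi-likelihood, allele by genotype within library), with DESeq2 1.42.0 as an alternative. Of the 13 ExE read columns, 3 correlated best with the RPKM of the library of their own name and 13 with one of their own genotype, so ExE alleles were read from allelic RPKM and those counts served only as a filter and as an alternative. No count test was run on RPKM. Fits were tested on simulated data.

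The members and gene lists were chosen with earlier results of these data known. Trp53, Cdkn1a, Mdm2, Ccng1, members passing any comparison, and the 6 smallest p-values in each total and allele level fit are named; Plk2, Perp, Gadd45a, Dram1, Bax, Rps27l, Aen, Fas and Mdm4 in ExE or by allele were added after their values were seen. The tables' 21 other per-sample columns were not used. Promoters came from RefSeq (GRCm38.p6). The H3K27me3 libraries were not analysed here.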

Additional observations from a re-analysis of the deposited data

Results flagged for a closer look

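Single libraries lay far from the rest of their group in 6 of 66 groups of matKO females or males tested, where chance alone picks out about 1 in 20. Sesn1 had 4.79 RPKM in matKO male 5 against 2.66 to 3.01 RPKM in the other matKO males. Ei24, a p53-induced gene of the endoplasmic reticulum, had 18.5 RPKM in matKO male 4 against 8.91 to 11.4 RPKM in the others. In matKO female 2, Bbc3, the gene of the death factor PUMA, had 2.12 RPKM against 1.40 to 1.51 RPKM, and Btg2, an antiproliferative gene, had 5.77 RPKM against 3.97 to 4.22 RPKM in the other matKO females. Trp53inp1 had 9.87 RPKM in matKO female 3 against 6.19 to 6.70 RPKM, and Polk had 3.78 RPKM in matKO female 1 against 4.97 to 5.08 RPKM in the others.

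Plk2 went opposite ways at the 2 stages: both matKO morulae were above both CTR morulae, and all 4 matKO ExE females were below both CTR females. The log2 differences were 1.91 apart, and this difference between stages was not tested, since the tables were normalized separately.

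Phlda3 was absent from the ExE read sheet and so was in no allelic test, but it has allelic RPKM. Its maternal allele had a median of 14.4 allelic RPKM in matKO, and every matKO library lay above every CTR library. Its paternal allele had a median of 3.23 allelic RPKM in matKO and did not overlap with CTR either. Over the 8453 genes tested by allele, 0.864% separated this way on the maternal and 0.568% on the paternal allele. Members outside the read sheet were picked out only where they separated. The total level of Phlda3 did not separate: matKO male 2 had 14.6 RPKM, within the CTR range of 12.5 to 17.5 RPKM.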

How the results depend on the processing

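Of 57 gene results, 53 kept their direction under every alternative run. Trp53 changed sign. Its averaged ExE difference was 0.047 with the replicate block, 0.13 without matKO males 4 and 5, and -0.065 to 0.055 leaving out 1 library; in females -0.0018 with the block and -0.027 to 0.15 leaving out 1; in males 0.095 with the block, 0.21 without males 4 and 5, and -0.18 to 0.058 leaving out 1; and on the paternal allele 0.054 without males 4 and 5. The cause was not tested.

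Same-numbered morula libraries deviated together (r = 0.70) and ExE ones did not (r = -0.04 to 0.06), but with 2 pairs the numbers are not shown to pair them. The replicate block called 6 of 36 members in morulae (16.7%), where 164 of 10329 genes were called. They were Pmaip1, Fas, Btg2, Plk2, Ccng1 and Trp53. At an unadjusted p the block had 15 members (41.7%, against 8.16% of all genes). It called 1 of 33 members, Cdkn1a (3.03%), in ExE averaged (45 of 9915 genes) and in males (18 of 9915 genes). In the morula ratio it called 1 of 29, Fas (3.45%, with 43 of 7872 genes). It called 0 genes in females and in the ExE ratio, 1 gene on each allele and 4 in the sex difference. In the sex difference 4 members had an unadjusted p under 0.05 (12.1%, against 4.18%), namely Cdkn1a, Pmaip1, Gadd45a and Plk2.

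Without matKO males 4 and 5, 1 of 33 members (3.03%) was called in ExE averaged and in males (8 of 9904 genes). On each allele 1 of 27 members was called (3.70%), with 20 of 8453 genes on the maternal and 43 of 8453 on the paternal allele. Without these 2 libraries 16 members had an unadjusted p under 0.05 in ExE (48.5%, against 18.8% of all genes) and 8 on the maternal allele (29.6%, against 13.2%). In ExE 69 genes were then called (0.697%), and 2 members were higher without overlap (6.06%, against 2.54% of all genes). Quantile normalization left 1 member at an unadjusted p in morulae (2.78%, against 0.794%), and a mean of at least 5 RPKM left 5 of 17 in ExE (29.4%, against 16.8%). All genes called in ExE averaged (5) became 10 with a pseudocount of 0.1, 38 with no filter, 11 at 5 RPKM, 15 with median scaling, 13 with quantile normalization and 11 without a trend. With no filter 12 were called in females, 15 in males, 1 in the sex difference and 4 in the morula ratio; DESeq2 called 14 there, and edgeR on reads 6 in the ExE ratio.

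Leaving out 1 library, members called ranged from 0 to 1 in morulae (Pmaip1 without CTR 2), in ExE averaged, in males and on the paternal allele, and from 0 to 2 in the morula ratio (Fas and Eda2r without CTR 1, Pmaip1 and Aen without CTR 2). All genes called ranged from 1 to 16 in morulae, 3 to 17 in ExE averaged, 1 to 3 in females, 1 to 6 in males, 0 to 1 in the sex difference, 0 to 123 in the morula ratio, 5 to 30 in the ExE ratio, 4 to 15 on the maternal and 11 to 201 on the paternal allele. Members at an unadjusted p under 0.05, in either direction, ranged from 3 to 8 of 27 on the maternal and 3 to 7 of 27 on the paternal allele. In the main fits 11.8% and 13.9% of all genes had one. Members higher without overlap ranged from 16 to 28 in morulae (where 26.1% to 37.9% of all genes were) and 1 to 3 in ExE (where 1.61% to 3.81% of all genes were). Where a morula group keeps 1 library, it is assumed to vary like the other group. Eda2r, called in the morula ratio without CTR 1, is X-linked, and the labels give no sex for morulae.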
